A study of Mus musculus with 30 samples.

Results

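The 10 genes described here encode the core circadian clock of the mouse liver and its best known output factor: *Arntl*, *Clock*, *Npas2*, *Per1*, *Per2*, *Per3*, *Cry1*, *Nr1d1*, *Nr1d2* and *Dbp*. They were taken by symbol from a table of 55450 genes, and each symbol matched 1 row. RNA sequencing had been run on whole livers of 30 male mice in 6 groups of 5, from 3 separate experiments on a diet rich in fat, cholesterol and fructose (HFCFD) that produces steatohepatitis. In every experiment, mice without hepatocyte CEBPA, a leucine zipper transcription factor of differentiated liver cells, were set beside *Cebpa* fl/fl controls that carried the floxed alleles but no Cre. The knockout mice of HFCFD2W, fed the diet for 2 weeks, were *Cebpa* ΔHep mice, in which Cre under the albumin promoter acts in hepatocytes from development on. The knockout mice of HFCFD8W+T10D (diet label of 8 weeks, tamoxifen for 10 days) and HFCFD12W+T10W (12 weeks, then tamoxifen for a further 10 weeks with the diet going on) were *Cebpa* ΔHep,ERT2 mice, in which an albumin-driven Cre is switched on in the adult by tamoxifen. The treatment labels give tamoxifen for the controls of those 2 experiments too, and both genotypes had been fed the same diet. All mice were on a C57BL/6N background, and liver cells other than hepatocytes keep *Cebpa* in these models. Age at collection, the hour of collection and the feeding state are not given in the sources used here.

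The clock is a loop of transcription factors in nearly every cell. ARNTL (also called BMAL1) pairs with CLOCK, or with its close relative NPAS2, and switches on the *Per* and *Cry* genes. The PER and CRY proteins then shut the pair off, and the nuclear receptors NR1D1 and NR1D2 (REV-ERB alpha and beta) close another arm by repressing *Arntl*. In mouse liver *Arntl* and *Npas2* mRNA peak at the opposite phase of the day from *Nr1d1*, *Per3* and *Dbp* mRNA, whose levels swing many-fold, so 1 sample taken at 1 hour records both the state of the clock and the hour.

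The libraries held 7996128 to 10257366 counts each, with a median of 8992022. The knockout was seen in every experiment: *Cebpa* lay at 149.3 to 193.4 CPM (counts scaled to library size, with TMM factors) in HFCFD2W controls and at 3.43 to 5.68 CPM in the knockouts, at 121.3 to 156.1 against 11.1 to 25.1 CPM in HFCFD8W+T10D, and at 82.5 to 135.3 against 18.7 to 23.8 CPM in HFCFD12W+T10W. The values of the 2 genotypes did not overlap in any experiment, and the log2 fold changes were -5.23 (SE 0.13), -3.04 (SE 0.20) and -2.38 (SE 0.14). Hepatocyte markers such as *Alb* were abundant in all 30 livers. In a whole liver, fewer cells of a type and less RNA per cell cannot be told apart. The series describes the 3 experiments as separate batches, so batch, diet time, tamoxifen, Cre line and any difference in hour cannot be told apart between experiments.

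All 10 members are protein-coding genes on 7 chromosomes of the mouse genome (mm10; positions from the GENCODE M21 annotation). *Arntl* lies at chr7:113207465-113314126, *Clock* at chr5:76209868-76304792, *Npas2* at chr1:39193731-39363236, *Per1* at chr11:69095217-69109960 and *Per2* at chr1:91415982-91459324. *Per3* lies at chr4:151003652-151044665, *Cry1* at chr10:85131700-85185064, *Nr1d1* at chr11:98767932-98775333, *Nr1d2* at chr14:18204054-18239127 and *Dbp* at chr7:45705088-45710203. The end of *Nr1d1* overlaps that of *Thra*, and the end of *Dbp* overlaps that of *Sphk2*, in both cases on opposite strands. *Per3* lies within the annotated span of *Camta1* on the same strand, and a *Ube2n* pseudogene lies within *Clock*, so reads there could be split between the genes.

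Clock factors act through short motifs near start sites, and 5 members carry such a motif in the 300 bases from 250 before to 50 after an annotated start (RefSeq, GRCm38.p6). Promoter windows were found for 9 of the 10 members, 13 in all. They were searched on both strands for the E-box CACGTG bound by CLOCK with ARNTL and its variant CACGTT, the D-boxes TTATGTAA and TTACGTAA bound by DBP, the NR1D1 element cores TAGGTCA and TGGGTCA, the C/EBP motif TTGCNNAA and the cyclic AMP element TGACGTCA. Matches are in capitals below, each sequence is written 5′ to 3′ along its gene, and no 2 matches overlap.
*Arntl* (chr7:113207261-113207560, plus strand): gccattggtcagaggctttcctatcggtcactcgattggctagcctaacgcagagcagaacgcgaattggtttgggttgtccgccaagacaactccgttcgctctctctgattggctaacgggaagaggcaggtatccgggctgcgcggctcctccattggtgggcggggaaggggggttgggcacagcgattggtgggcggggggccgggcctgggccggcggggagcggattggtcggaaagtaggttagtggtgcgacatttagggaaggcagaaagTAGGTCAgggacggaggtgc
*Per1* (chr11:69098699-69098998, plus strand): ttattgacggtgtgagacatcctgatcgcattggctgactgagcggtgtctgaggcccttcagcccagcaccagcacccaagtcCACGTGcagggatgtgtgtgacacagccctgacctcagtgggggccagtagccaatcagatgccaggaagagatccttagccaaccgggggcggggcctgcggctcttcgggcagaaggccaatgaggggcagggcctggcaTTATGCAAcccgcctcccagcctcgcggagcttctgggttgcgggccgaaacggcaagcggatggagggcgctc
*Per3* (chr4:151044616-151044915, minus strand): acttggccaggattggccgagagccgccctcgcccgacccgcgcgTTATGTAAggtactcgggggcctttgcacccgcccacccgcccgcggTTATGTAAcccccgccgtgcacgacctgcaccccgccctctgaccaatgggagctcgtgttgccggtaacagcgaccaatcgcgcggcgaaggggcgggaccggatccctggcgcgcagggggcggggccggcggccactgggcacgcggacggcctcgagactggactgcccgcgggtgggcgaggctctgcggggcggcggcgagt
*Cry1* (chr10:85185005-85185304, minus strand): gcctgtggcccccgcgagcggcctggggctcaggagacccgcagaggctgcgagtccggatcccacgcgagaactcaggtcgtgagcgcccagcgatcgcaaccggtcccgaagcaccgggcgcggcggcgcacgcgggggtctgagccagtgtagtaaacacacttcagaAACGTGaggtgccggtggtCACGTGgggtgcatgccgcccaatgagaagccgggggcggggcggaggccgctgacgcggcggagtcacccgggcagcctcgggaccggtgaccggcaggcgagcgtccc
*Nr1d1* (chr11:98775328-98775627, minus strand): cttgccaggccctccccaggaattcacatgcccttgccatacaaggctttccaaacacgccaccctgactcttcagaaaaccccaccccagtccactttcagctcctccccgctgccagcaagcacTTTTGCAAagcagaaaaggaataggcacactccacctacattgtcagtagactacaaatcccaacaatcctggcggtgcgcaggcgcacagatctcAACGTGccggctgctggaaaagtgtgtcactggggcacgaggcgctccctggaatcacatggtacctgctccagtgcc

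With positions counted from the start site, *Cry1* held CACGTG at -60 and CACGTT at -79, and *Per1* held CACGTG at -166 and the C/EBP motif at -24. *Nr1d1* held the C/EBP motif at -124 and CACGTT at -28. *Per3* held TTATGTAA at -205 and again at -158, and *Arntl* held TAGGTCA at 30. Over 32817 mouse promoters of the same length, 7.15% hold CACGTG, 4.69% CACGTT, 0.935% TTATGTAA, 0.119% TTACGTAA, 2.61% TAGGTCA, 3.98% TGGGTCA, 10.8% TTGCNNAA and 1.79% TGACGTCA. The windows found for *Dbp*, *Clock*, *Npas2* and *Nr1d2* held none of these letters, which says nothing of sites outside them. A match is a description of the sequence and not evidence of binding.

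The largest differences among the groups set HFCFD8W+T10D apart from the other 2 experiments, in both genotypes. Differences between HFCFD2W and HFCFD12W+T10W controls were of the size of some genotype differences. On the TPM scale, which allows for gene length, *Dbp* led the 10 genes in HFCFD2W controls at 82.7 ± 15.9 TPM (mean ± SD, n = 5), followed by *Nr1d2* at 19.3 ± 1.94 and *Nr1d1* at 17 ± 5.63, which did not differ beyond their spread. *Per1*, *Per2*, *Per3*, *Clock* and *Cry1* followed between 4.67 and 2.22 TPM, each within the spread of its neighbour, then *Arntl* at 0.184 and *Npas2* at 0.018. In HFCFD8W+T10D controls the order began with *Cry1* at 16 ± 3.51 TPM, *Nr1d2* at 10.1 ± 1.84 and *Arntl* at 6.44 ± 1.75. There *Arntl*, *Clock*, *Per2*, *Dbp*, *Per1* and *Nr1d1* ran from 6.44 to 2.65 TPM, each within the spread of the next, with *Dbp* at 4.20 ± 1.73. In HFCFD12W+T10W controls *Dbp* led again at 45.6 ± 18.9 TPM, within its spread of *Nr1d2* at 27.7 ± 2.96, and *Arntl* stood ninth at 0.794 ± 0.537. In both other experiments *Arntl* thus ranked below *Clock*, and in HFCFD8W+T10D the neighbours *Arntl* and *Clock* did not differ beyond their spread.

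**Figure D1:**
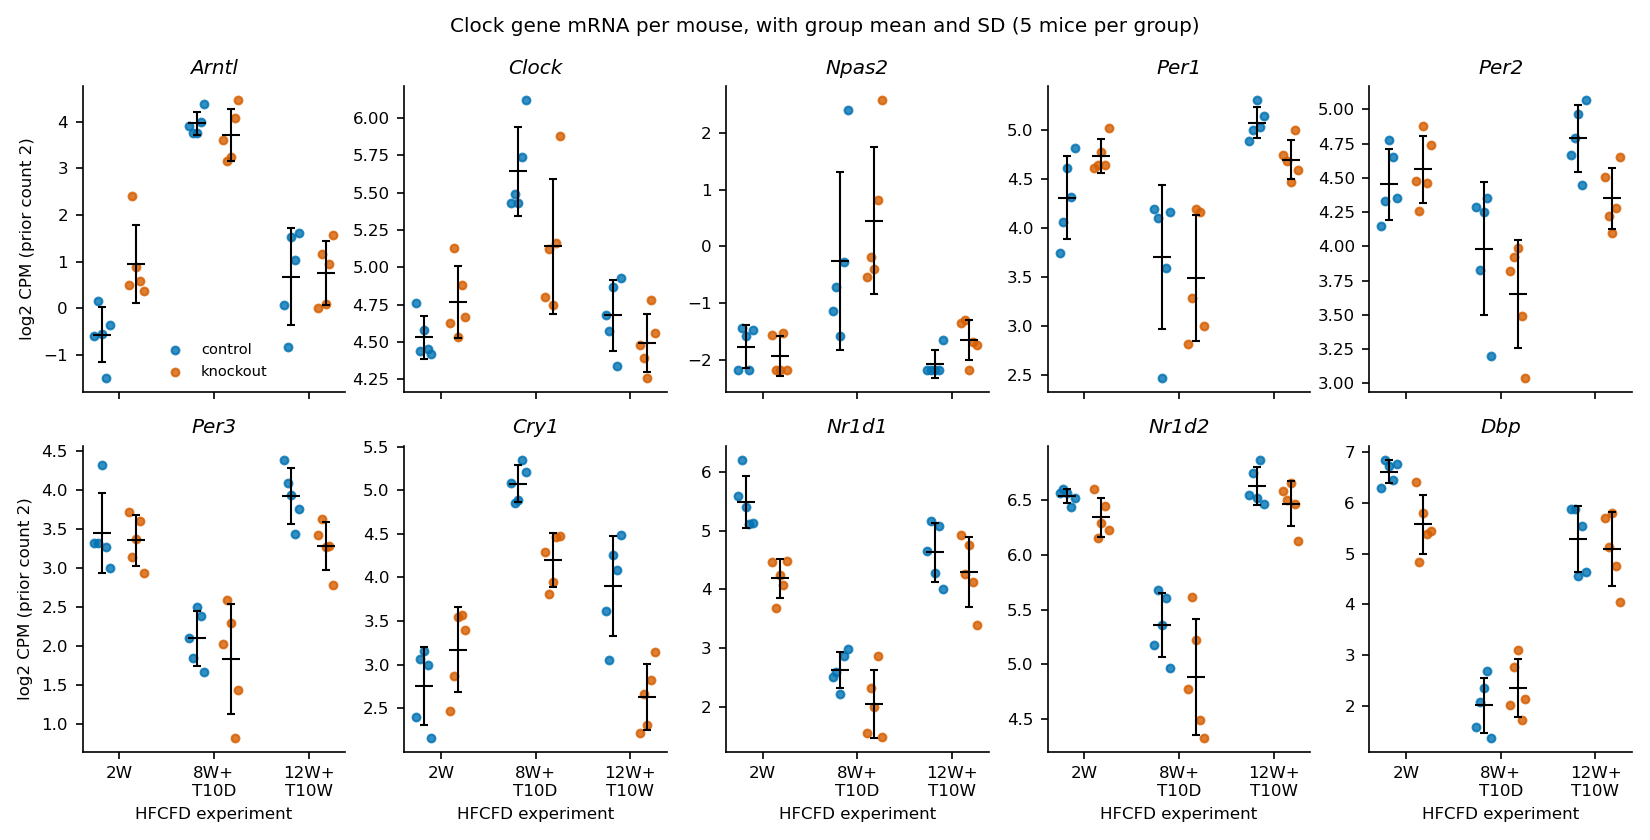
Level of each clock gene in every mouse, as log2 CPM (prior count of 2, vertical axis), for the 3 HFCFD experiments along the horizontal axis, with control mice in blue and knockout mice in orange, and bars for the group mean and SD of 5 mice. *Arntl*, *Clock*, *Npas2* and *Cry1* sit highest in HFCFD8W+T10D, where *Dbp*, *Nr1d1*, *Nr1d2* and *Per3* sit lowest, in both genotypes.

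The comparison of the 3 control groups asked how far the clock differed between cohorts with *Cebpa* intact. Differences were fitted over all 30 mice with the quasi-likelihood F test of edgeR. P-values were adjusted by Benjamini-Hochberg across every gene tested, here and in the later comparisons, and called means an adjusted p below 0.05. Between HFCFD2W and HFCFD8W+T10D controls 7 of the 9 members tested were called, 3 higher and 4 lower in HFCFD8W+T10D, where 43.6% of all genes tested were called, 22.2% higher and 21.5% lower. The members' median log2 difference was -0.55, against 0.016 over all genes. *Npas2* was too low for this fit, and the count includes *Arntl*, whose call is not read as a result.

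The activators were higher in HFCFD8W+T10D. *Arntl*, the partner without which the loop stops, was at 0.445, 0.891, 0.466, 0.138 and 0.568 CPM in HFCFD2W control mice 1 to 5 and at 14.9, 13.5, 13.2, 15.7 and 20.7 CPM in HFCFD8W+T10D control mice 1 to 5. The groups lay far apart, with a log2 difference of 4.94 (SE 0.49, adjusted p = 1.35e-08), 30.7-fold. The HFCFD2W values rest on 1 to 6 counts per library, and *Arntl* entered the fit through groups where it is higher. The fold is therefore imprecise, and no conclusion is drawn from its call in this contrast. *Clock*, its partner, was higher by 1.14 (SE 0.17, adjusted p = 7.14e-06), from 26.9, 21.5, 23.7, 21.7 and 21.1 CPM to 43.0, 44.8, 42.8, 53.3 and 69.2 CPM. *Cry1*, the repressor that follows latest in the daily cycle, was higher by 2.31 (SE 0.24, adjusted p = 3.01e-08), from 5.05, 8.16, 8.74, 7.73 and 4.26 CPM to 33.5, 28.8, 29.4, 40.4 and 36.9 CPM. Neither gene's groups overlapped.

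The genes of the opposite phase were lower. *Dbp*, a PAR-type leucine zipper factor that carries the rhythm to metabolic genes, was at 78.8, 114.4, 106.1, 86.4 and 108.4 CPM in HFCFD2W controls and at 2.78, 4.01, 4.87, 6.2 and 2.36 CPM in HFCFD8W+T10D controls. This was a difference of -4.61 (SE 0.38, adjusted p = 4.93e-10), 24.4-fold lower, with no overlap. *Nr1d1* was at 48.1, 73.8, 42.2, 34.6 and 35.1 CPM against 5.45, 5.82, 4.4, 7.11 and 7.67 CPM, a difference of -2.93 (SE 0.29, adjusted p = 1.28e-08). *Nr1d2* differed by -1.16 (SE 0.17, adjusted p = 3.45e-06) and *Per3*, the least essential of the period genes for the rhythm, by -1.45 (SE 0.27, adjusted p = 0.000102), and no values overlapped for these 3 genes either. The differences of *Per1* at -0.55 (adjusted p = 0.08) and *Per2* at -0.44 (adjusted p = 0.0592) did not pass.

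Between HFCFD8W+T10D and HFCFD12W+T10W controls all 9 members tested were called, 6 higher and 3 lower in HFCFD12W+T10W, where 11.4% of all genes tested were called, 6.31% higher and 5.12% lower. These contrasts share control groups, so the opposite signs of 2 of them are not independent observations. *Dbp* stood at 58.2, 58.1, 23.4, 46.4 and 24.6 CPM in HFCFD12W+T10W controls, higher than in HFCFD8W+T10D by 3.38 (SE 0.37, adjusted p = 6.99e-07), 10.4-fold. *Nr1d1* was at 25.1, 35.5, 19.2, 33.7 and 15.8 CPM, higher by 2.07 (SE 0.29, adjusted p = 2.39e-05). *Arntl* was at 0.832, 0.34, 2.64, 1.84 and 2.83 CPM, lower by 3.18 on the log2 scale (difference -3.18, SE 0.39, adjusted p = 4.27e-06), 9.05-fold. For none of the 9 genes did a mouse of one group fall within the range of the other. How often this holds among all genes was not counted, so it is not read as particular to these genes. *Per3* differed by 1.87, *Per1* by 1.27, *Nr1d2* by 1.26 and *Per2* by 0.78, and *Cry1* by -1.11 and *Clock* by -0.98. The members' median was 1.26, against -0.007 over all genes.

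HFCFD12W+T10W and HFCFD2W controls were nearer to each other, with 5 of 9 members called, 3 higher and 2 lower in HFCFD12W+T10W, where 39.1% of all genes were called, 19.8% higher and 19.4% lower. With a fold above 2 as well, 3 members and 10.1% of all genes were called. *Dbp* was lower (-1.23, SE 0.30, adjusted p = 0.00191) and *Per1*, the period gene most readily induced by hormones and feeding, was higher (0.72, SE 0.24, adjusted p = 0.019), both with no overlap. *Cry1* was higher by 1.19 (SE 0.25, adjusted p = 0.000436) and *Arntl* by 1.76 (SE 0.62, adjusted p = 0.0256), and *Nr1d1* was lower (-0.85, SE 0.26, adjusted p = 0.00942). *Arntl* failed the low-count filter within HFCFD2W, at 1 to 6 counts per control library, and entered this fit through other groups. It is among the 5 called, but its value is at the limit of depth and no conclusion is drawn from its call. Of these calls, 3 rested on single mice. *Arntl* was no longer called without HFCFD12W+T10W control 3 (adjusted p = 0.0649) or control 5 (adjusted p = 0.0829) or without HFCFD2W control 4 (adjusted p = 0.0677), *Per1* without HFCFD2W control 1 (adjusted p = 0.0632) or control 2 (adjusted p = 0.0507), and *Nr1d1* without HFCFD2W control 2 (adjusted p = 0.0551). Without that last mouse 3 of the 9 members were called. *Per3* gained a call without HFCFD2W control 3 (0.72, adjusted p = 0.0187). With library totals, which move the median of all genes to 0.25, 4 members were higher and 1 was lower, as *Nr1d1* was not called (-0.62, adjusted p = 0.0522) and *Per2* was (0.57, adjusted p = 0.0218).

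**Figure D2:**
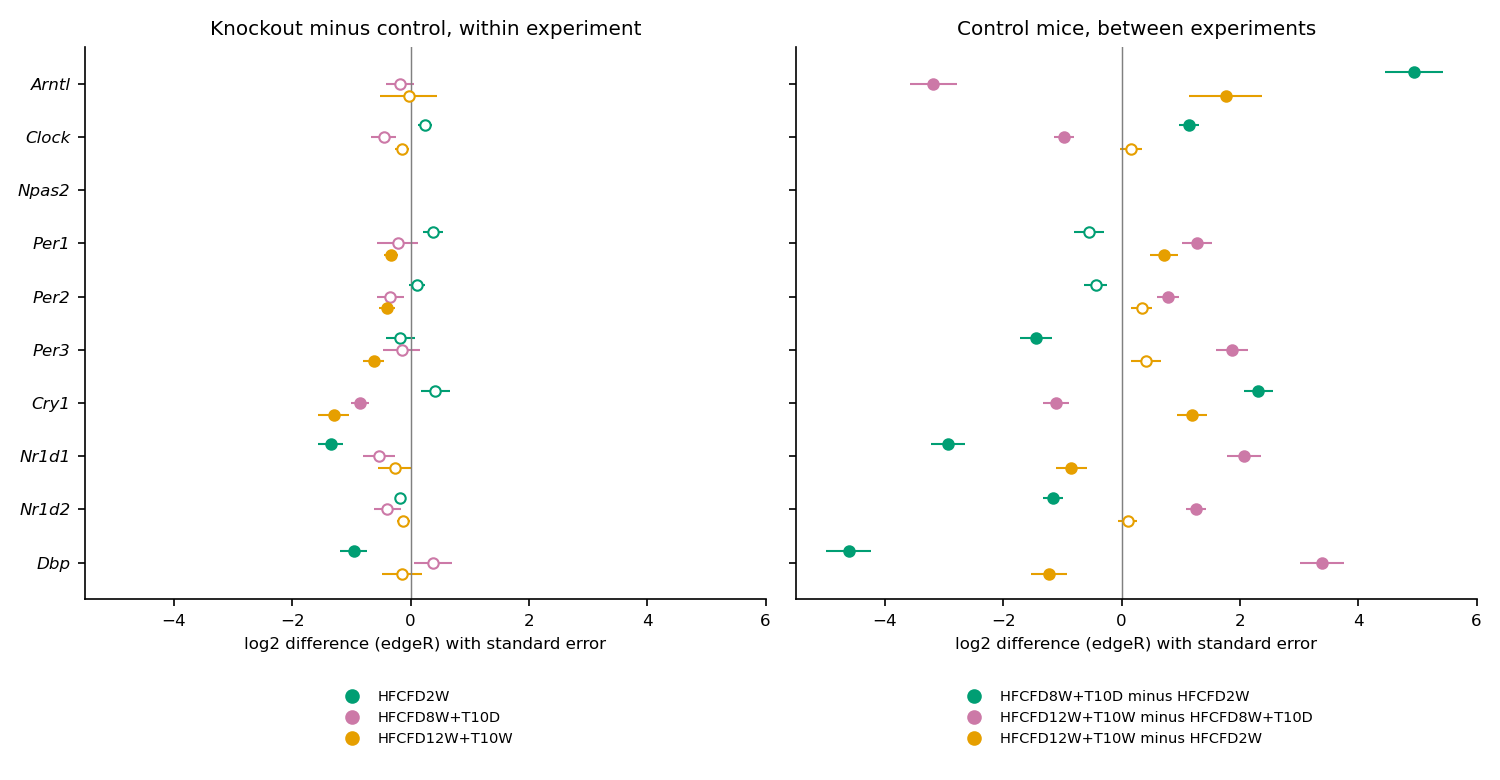
Log2 difference with its standard error (horizontal axis) for each clock gene, for knockout minus control within each experiment (left) and between the control groups of pairs of experiments (right), with filled points at an adjusted p under 0.05 and open points otherwise. Genotype differences run from -1.35 to 0.42 and differences between control groups from -4.61 to 4.94, and *Npas2* in all comparisons and *Arntl* in the HFCFD2W genotype comparison were not tested for low counts.

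The next question was how the clock genes differed between genotypes within each experiment, where both genotypes share diet, treatment label and batch. Whether both genotypes were collected at the same hour is not given in the sources used here, so a difference in phase and a difference in level cannot be told apart. In HFCFD2W livers *Nr1d1* and *Dbp* were lower in the knockouts and no member was higher, 2 of 8 members tested. Of all 11068 genes tested in that experiment 16.7% were called, 8.09% lower and 8.60% higher. The members' median log2 fold change was -0.03, against 0.007 over all genes.

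*Nr1d1* was at 48.1, 73.8, 42.2, 34.6 and 35.1 CPM in HFCFD2W control mice 1 to 5 and at 21.8, 12.6, 18.8, 16.6 and 22 CPM in knockout mice 2 to 6. Every knockout lay below every control, and the group values were 46.7 ± 16.1 against 18.4 ± 3.93 CPM. The log2 fold change was -1.35 (SE 0.21, adjusted p = 0.00096), 2.55-fold lower, and it stayed between -1.37 and -1.26 under the other scalings, filters and tools run. *Thra*, whose 3′ end overlaps *Nr1d1* on the other strand, had a log2 fold change of -0.37 (adjusted p = 0.132). In HFCFD8W+T10D that of *Thra* was 0.05, and in HFCFD12W+T10W it was 0.71 (adjusted p = 0.000285), where that of *Nr1d1* was -0.27. The library kit marks strand, but whether the counting used it is not given in the sources used here. *Dbp* was at 78.8, 114.4, 106.1, 86.4 and 108.4 CPM in the controls and at 84.7, 28.4, 55.5, 41.5 and 43.1 CPM in knockouts 2 to 6. Knockout 2 lay within the control range and the other 4 lay below it, and *Dbp* fell by 0.96 on the log2 scale (-0.96, SE 0.23, adjusted p = 0.0119), from 98.8 ± 15.4 to 50.7 ± 21.3 CPM.

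*Arntl*, the gene that NR1D1 represses, had too few counts in HFCFD2W for the filter on low counts and was not part of that count. Its values were 0.445, 0.891, 0.466, 0.138 and 0.568 CPM in the controls and 1.18, 5.05, 1.62, 1.28 and 1.07 CPM in knockouts 2 to 6, from 1 to 6 and from 8 to 45 counts per library. All 5 knockouts lay above all 5 controls. Fitted without the filter, the log2 fold change was 2.03 (SE 0.52, adjusted p = 0.0163), and with DESeq2 it was 2.04 (SE 0.60, adjusted p = 0.0128). Without knockout 3, the mouse at 5.05 CPM, it was 1.34 (SE 0.44, adjusted p = 0.068) and no longer called. On the deposited CPM table with limma, where a pseudocount of 1 shrinks low genes, it was 0.90 (adjusted p = 0.0557). *Npas2* was at 0 to 0.148 CPM in controls and 0 to 0.128 CPM in knockouts in HFCFD2W, at or under the floor of 3 counts per library, and no comparison was made.

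The remaining members of the loop did not pass in HFCFD2W. The log2 fold change of *Clock* was 0.25 (adjusted p = 0.17), that of *Per1* 0.38 (adjusted p = 0.148), of *Per2* 0.11, of *Per3* -0.17, of *Cry1* 0.42 (adjusted p = 0.268) and of *Nr1d2* -0.18 (adjusted p = 0.156), with overlapping values in each. Of these, *Per1* passed without control 5 (0.52, adjusted p = 0.0495) and *Nr1d2* without knockout 2 (-0.25, adjusted p = 0.0406). *Per3* turned from -0.17 to 0.15 without control 3, the mouse with the highest *Per3* of that group at 19.7 CPM.

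In HFCFD8W+T10D livers, 10 days into tamoxifen, *Cry1* was lower in the knockouts and was the 1 member called of 9 tested. Of all 11990 genes tested 17.1% were called, 6.85% lower and 10.3% higher. *Cry1* was at 33.5, 28.8, 29.4, 40.4 and 36.9 CPM in controls 1 to 5 and at 19.4, 13.8, 15.3, 21.9 and 22.1 CPM in knockouts 1 to 5. No values overlapped, and the means of 33.8 ± 4.93 and 18.5 ± 3.81 CPM gave a log2 fold change of -0.86 (SE 0.15, adjusted p = 0.00216), 1.82-fold lower. Under the other scalings, filters and tools run its log2 fold change ranged from -0.88 to -0.69. A fold above 2 as a further threshold left 0 members called here, against 6.10% of all genes. It left 1 in HFCFD2W (3.07% of all genes) and 1 in HFCFD12W+T10W (17.7%).

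The other clock genes overlapped between genotypes in HFCFD8W+T10D. *Arntl* was at 14.9, 13.5, 13.2, 15.7 and 20.7 CPM in controls and at 11.9, 8.64, 9.32, 16.8 and 21.9 CPM in knockouts (-0.18, SE 0.24, adjusted p = 0.657). *Dbp* was at 2.78, 4.01, 4.87, 6.2 and 2.36 CPM against 3.84, 6.58, 8.34, 3.08 and 4.18 CPM (0.38, SE 0.32, adjusted p = 0.453), and the log2 fold change of *Nr1d1* was -0.54 (SE 0.27, adjusted p = 0.195). That of *Clock* was -0.45 (SE 0.21, adjusted p = 0.16), of *Nr1d2* -0.39, of *Per2* -0.34, of *Per1* -0.22 and of *Per3* -0.15. The members' median was -0.34, against 0.011 over all genes, and 2 members had an unadjusted p under 0.05. Single knockout mice weighed on these values. *Clock* passed without knockout 5 (-0.70, adjusted p = 0.01), *Nr1d1* without knockout 4 (-0.80, adjusted p = 0.0307) and *Nr1d2* without knockout 2 (-0.63, adjusted p = 0.0493), which made 2 called members each time. *Clock* also passed in the fit over all mice (-0.47, adjusted p = 0.0378) and with a block for replicate number (-0.48, adjusted p = 0.0123). It passed too when replicate 5 of both genotypes was left out (-0.56, adjusted p = 0.0139), a choice made after seeing the data.

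*Npas2*, the stand-in for CLOCK, lay above the floor of 3 counts only in HFCFD8W+T10D and was not tested. Controls 1 to 3 there had 2, 3 and 1 counts, at or under that floor. *Npas2* was at 0.232, 0.388, 0.116, 0.61 and 5.12 CPM in controls and at 0.468, 0.658, 0.542, 1.54 and 5.79 CPM in knockouts. Mouse 5 of each genotype stood apart, with 52 and 61 counts. Those 2 mice also had the highest *Arntl* (20.7 and 21.9 CPM) and *Clock* (69.2 and 58.8 CPM) and the lowest *Per2* (8.95 and 7.98 CPM) of their groups.

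In HFCFD12W+T10W livers *Cry1* and the 3 period genes were lower in the knockouts, 4 of 9 members tested and none higher. Of all 12463 genes tested 51.1% were called, 23.8% lower and 27.4% higher, so 4 of 9 lies near the share over all genes. The members' median log2 fold change was -0.27, against 0.013 over all genes. *Cry1* was at 12, 8.04, 19, 16.8 and 22.2 CPM in controls and at 4.45, 6.1, 4.73, 6.84 and 8.58 CPM in knockouts. Only control 2 and knockout 5 crossed, and the log2 fold change was -1.30 (SE 0.26, adjusted p = 0.00105), 2.47-fold lower, from 15.6 ± 5.62 to 6.14 ± 1.68 CPM.

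The period genes, which together with CRY1 form the repressor complex, were also called lower. *Per3* was at 20.6, 16.7, 15, 10.6 and 13.2 CPM in controls and at 10.5, 12.1, 9.46, 9.49 and 6.64 CPM in knockouts (-0.62, SE 0.18, adjusted p = 0.0129). *Per2* was at 25.2, 27.5, 31.1, 21.7 and 33.3 CPM against 22.6, 18.4, 17, 19.2 and 24.8 CPM (-0.40, SE 0.13, adjusted p = 0.0214). *Per1* was at 29.5, 31.7, 39.4, 32.5 and 35.3 CPM against 26.8, 25.7, 22, 31.8 and 23.9 CPM (-0.33, SE 0.11, adjusted p = 0.0214). All 3 sets of values overlapped. *Per1* was not called without knockout 3 (-0.28, adjusted p = 0.0513) or knockout 5 (-0.30, adjusted p = 0.0521), without replicate 5 of both genotypes (-0.28, adjusted p = 0.0905) or in the fit over all mice (-0.37, adjusted p = 0.188), nor *Per2* without knockout 2 (-0.37, adjusted p = 0.0514) or knockout 3 (-0.35, adjusted p = 0.051), so that 2 members were called without knockout 3.

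The period genes' falls also depended on how libraries were scaled. When counts were divided by library totals with no TMM factors, a scaling added after seeing the data that moves the median of all genes to 0.38, *Per1* was at 0.039 and *Per2* at -0.032 (adjusted p = 0.851). *Per3* was then at -0.25 (adjusted p = 0.247), *Cry1* stayed called at -0.92 (adjusted p = 0.0079), and *Nr1d2* passed in the other direction at 0.25 (adjusted p = 0.0415). Under upper-quartile scaling *Per3* (-0.53, adjusted p = 0.0254) and *Cry1* were the 2 members called. In the authors' TPM, *Per1* averaged 9.38 in controls and 9.53 in knockouts, and *Per2* 5.91 and 5.77. Relative to the middle of all genes the 3 period genes were lower, and as shares of the whole library *Per1* and *Per2* were not.

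The activator and output arms gave no call in HFCFD12W+T10W. *Arntl* was at 0.832, 0.34, 2.64, 1.84 and 2.83 CPM in controls and at 0.785, 2.03, 0.845, 1.73 and 2.75 CPM in knockouts (-0.03, adjusted p = 0.967). *Dbp* ranged from 23.4 to 58.2 CPM in controls and from 16.3 to 55.7 CPM in knockouts (-0.14, SE 0.34, adjusted p = 0.766), and *Nr1d1* from 15.8 to 35.5 and from 10.4 to 30.2 CPM (-0.27, SE 0.28, adjusted p = 0.446). The log2 fold change of *Clock* was -0.15 and that of *Nr1d2* -0.12. From lowest to highest, *Dbp* and *Nr1d1* ranged over more than 2-fold among mice of 1 group.

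Passing in one experiment and missing in another shows no difference between them, so the difference of the genotype effects was itself tested in the fit over all 30 mice. Between HFCFD8W+T10D and HFCFD2W 2 of 9 members passed, both lower in HFCFD8W+T10D, where 11.2% of all genes differed, 4.45% higher and 6.79% lower. That count includes *Arntl*, whose call is not read as a result. *Cry1* differed by -1.29 (SE 0.34, adjusted p = 0.0129), its effect being 0.42 in HFCFD2W and -0.86 in HFCFD8W+T10D, and *Arntl* by -2.24 (SE 0.69, adjusted p = 0.0347). *Arntl* entered this fit through the groups where it is high, and its HFCFD2W side rests on 1 to 6 counts per control library. Its interactions are therefore given as values at the limit of depth, and no conclusion is drawn from its calls in either contrast with HFCFD2W. *Clock* at -0.72 (adjusted p = 0.0536) and *Dbp* at 1.33 (adjusted p = 0.0919) did not pass. With limma on the deposited CPM both passed (-0.73, adjusted p = 0.0352, and 1.30, adjusted p = 0.0499). *Clock* also passed without HFCFD8W+T10D knockout 5 (-0.97, adjusted p = 0.00199), control 1 (adjusted p = 0.0461), control 2 (adjusted p = 0.0489) or control 3 (adjusted p = 0.0437), or without HFCFD2W control 1 (adjusted p = 0.049) or knockout 4 (adjusted p = 0.0435), and *Dbp* without HFCFD2W knockout 2 (1.60, adjusted p = 0.0383). Between HFCFD12W+T10W and HFCFD2W 3 members passed, *Arntl* again among them, 1 higher and 2 lower. There 30.7% of all genes differed, 13.4% higher and 17.3% lower. *Cry1* differed by -1.76 (SE 0.36, adjusted p = 0.000463), *Arntl* by -2.12 (SE 0.78, adjusted p = 0.0386) and *Nr1d1* by 1.03 (SE 0.37, adjusted p = 0.0334). Both contrasts use the same HFCFD2W mice. In the second contrast *Arntl* was not called with limma (-0.90, adjusted p = 0.0932), upper-quartile scaling (-1.99, adjusted p = 0.0546) or library totals (-1.71, adjusted p = 0.0842), and *Dbp* was called with library totals (1.16, adjusted p = 0.0388).

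The test of *Cry1* held with each mouse left out, with adjusted p at most 0.0306 in the first contrast and 0.00145 in the second. That of *Arntl* leaned on HFCFD2W knockout 3, the mouse at 5.05 CPM. Without it the differences were -1.54 (adjusted p = 0.149) and -1.43 (adjusted p = 0.146), and each call was also lost in the absence of several other mice, 9 of 20 fits in the first contrast and 10 of 20 in the second. The call for *Nr1d1* was lost in 7 of 20, with 0.80 (adjusted p = 0.0925) without HFCFD2W control 2. Between the 2 tamoxifen experiments 0 of 9 members differed by edgeR, 0 had an unadjusted p under 0.05, and 10.5% of all genes differed, 4.97% higher and 5.49% lower. DESeq2 also called 0 members there. *Cry1* thus fell in both tamoxifen experiments, and no difference between those falls was detected.

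The clock genes also varied among mice of the same group. The SD of log2 CPM within groups was 0.71 for *Arntl* and 0.57 for *Dbp*, at percentiles 96.9 and 93.6 of 12104 genes, against a median gene at 0.23. In HFCFD8W+T10D controls, at 104 to 210 counts, the SD of *Arntl* was 0.26, and in the knockouts there it was 0.56. In the other groups it ran from 0.59 to 1.05 at 1 to 45 counts, so counting error enters its percentile. *Nr1d1* (0.47), *Per1* (0.45), *Per3* (0.45) and *Cry1* (0.42) were also above most genes, and *Clock* and *Nr1d2* (0.28 each) were nearer the middle. Deviations from group means were correlated for every pair of members, and 4 pairs were tested by permutation. Among the pairs not tested, r was 0.71 for *Clock* with *Npas2* and 0.69 for *Nr1d2* with *Dbp*. It was -0.66 for *Npas2* with *Per2* and 0.6 for *Per3* with *Nr1d2*. *Npas2* was at or under the floor outside HFCFD8W+T10D. Within that experiment mouse 5 of each genotype stood apart (52 and 61 counts), so the r values of *Npas2* lean on those mice. Over the 30 mice, with each group's mean removed, *Arntl* and *Dbp* ran opposite to each other (Pearson r = -0.66, Spearman rho = -0.67, permutation adjusted p = 0.00308 for each), and r was -0.62 without the 2 mice farthest from the median of *Arntl*. Within HFCFD2W, HFCFD8W+T10D and HFCFD12W+T10W r was -0.37, -0.65 and -0.86.

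Of the 4 pairs tested, *Dbp* and *Per3*, genes of neighbouring phase, ran together (r = 0.56, rho = 0.56, permutation adjusted p = 0.00517 and 0.00734). Their r was 0.50 without the 2 farthest mice and 0.37, 0.77 and 0.52 within the experiments. *Arntl* and *Npas2* gave r = 0.34 and rho = 0.45 (permutation adjusted p = 0.00834 and 0.00992), with 0.08, 0.82 and 0.32 within experiments, and most *Npas2* values outside HFCFD8W+T10D are at or near 0. *Arntl* and *Nr1d1* gave r = -0.41 and rho = -0.37, which missed the threshold (permutation adjusted p = 0.0569 and 0.0801), with -0.10, 0.04 and -0.79 within experiments. P-values were permuted within groups and adjusted over the 4 pairs and both measures.

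**Figure D3:**
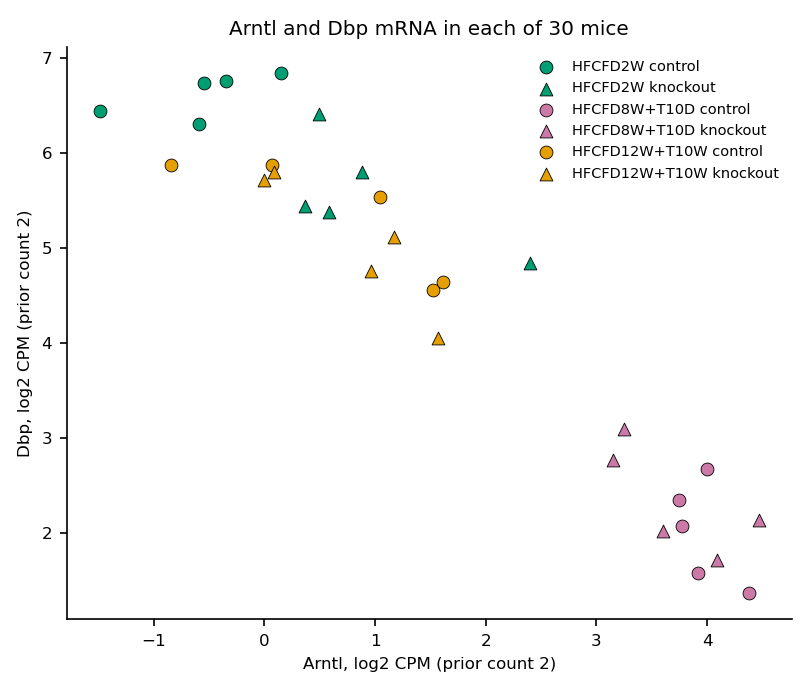
*Dbp* (vertical axis) against *Arntl* (horizontal axis), both as log2 CPM with a prior count of 2, with 1 point for each of 30 mice, coloured by experiment and shaped by genotype. HFCFD8W+T10D mice lie at high *Arntl* and low *Dbp*, HFCFD2W controls at low *Arntl* and high *Dbp*, and the HFCFD2W knockouts lie between those controls and the HFCFD8W+T10D mice on the *Arntl* axis.

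The log2 ratio of *Dbp* to *Arntl* puts both arms in 1 value per mouse. Its median was 7.11 in HFCFD2W controls (range 6.69 to 7.92) and 4.92 in the knockouts (2.44 to 5.92), and every knockout lay below every control. *Arntl* was at 1 to 6 counts per library in those controls, so their ratios depend on the prior count of 2 and are not exact. No conclusion is drawn from that separation. In HFCFD8W+T10D it was -1.69 (-3.02 to -1.32) and -1.58 (-2.37 to -0.16), and in HFCFD12W+T10W 4.5 (3.03 to 6.71) and 3.95 (2.48 to 5.72), with overlap in both. Some mice held several extreme values of their group. HFCFD2W knockout 3 had the highest *Arntl* (5.05 CPM) and *Clock* (34.9 CPM) and the lowest *Dbp* (28.4 CPM) and *Nr1d1* (12.6 CPM) of its group, while its *Cry1* (7.07 CPM) and *Per3* (8.53 CPM) lay inside the range of the others. HFCFD12W+T10W knockout 5 had the highest *Arntl* (2.75 CPM) and the lowest *Dbp* (16.3 CPM), *Nr1d1* (10.4 CPM), *Nr1d2* (69.6 CPM) and *Per3* (6.64 CPM) of its group.

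Among 12095 other genes with a mean of at least 1 CPM, those whose deviations from group means over the 30 mice were most like those of *Arntl* were *Ypel2* (r = 0.80), *Ahctf1* (0.74), *Clpx* (0.69), *Pnkd* (0.68) and *Scand1* (0.68). The most opposed were *Snap29* (-0.73), *Azin1* (-0.71), *Ttc7* (-0.70), *Vdac2* (-0.70) and *Stradb* (-0.66). For *Dbp* the most alike were *Prpsap1* (0.82), *Tef* (0.81), *Aqp11* (0.70), *Ptpn3* (0.68) and *Ttc7* (0.67), and the most opposed *Pnrc1* (-0.76), *Pcp4l1* (-0.75), *Tubb2a* (-0.73), *Cdkn1a* (-0.71) and *Cyp2b10* (-0.71). *Tef* encodes the closest relative of DBP, and *Ttc7* appears on opposite sides for *Arntl* and *Dbp*. These are descriptions over mice that share libraries and scaling.

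Other regulators of the clock were counted from a list of 18 genes. This list and those that follow were chosen with earlier results of these data known, so their counts beside the shares of all genes are descriptions only. In HFCFD2W 2 of the 16 tested rose and 3 fell, with a median log2 fold change of 0.05, where 8.60% of all genes rose and 8.09% fell. *Bhlhe41* and *Bhlhe40*, repressors that compete for E-boxes, fell from 3.22 ± 0.691 to 1.04 ± 0.757 CPM (-1.61, SE 0.35, adjusted p = 0.00825) and from 128.4 ± 20.1 to 84.2 ± 18.9 CPM (-0.61, adjusted p = 0.0142). *Tef* fell by 0.35 on the log2 scale (-0.35, adjusted p = 0.016). In HFCFD8W+T10D, where 17.1% of all genes were called, 1 of 14 tested fell and none rose: *Hlf*, a PAR-type factor like DBP, from 48.0 ± 3.68 to 30.5 ± 5.08 CPM (-0.65, SE 0.12, adjusted p = 0.00332). In HFCFD12W+T10W 3 of 17 tested rose and 8 fell, with a median of -0.02, where 27.4% of all genes rose and 23.8% fell. *Nfil3*, the repressor that opposes DBP at D-boxes, fell from 22.8 ± 8.69 to 7.64 ± 2.83 CPM (-1.53, SE 0.31, adjusted p = 0.0011) and *Ciart*, a repressor of CLOCK and ARNTL, from 10.8 ± 1.40 to 4.70 ± 1.32 CPM (-1.16, SE 0.19, adjusted p = 0.00022). *Hlf* (-0.74), *Tef* (-0.54), *Bhlhe40* (-0.47), *Rora* (-0.36) and *Cry2* (-0.32) were also among those that fell, and *Timeless* (1.58), *Csnk1e* (0.99) and *Fbxw11* (0.18) rose. Falls smaller than 0.38 in this experiment are within the shift that scaling by library totals gives to the median gene.

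Clock output genes of the liver were counted from a list of 25, also chosen with earlier results of these data known. In HFCFD2W 9 rose and 4 fell, with a median of 0.37, in HFCFD8W+T10D none rose and 5 fell, with a median of -0.39, and in HFCFD12W+T10W 2 rose and 15 fell, with a median of -0.56. Of all genes, 8.60%, 10.3% and 27.4% rose and 8.09%, 6.85% and 23.8% fell in the 3 experiments. The genotype effect differed between the 2 tamoxifen experiments for 4 of the 25 genes (3 higher, 1 lower in HFCFD12W+T10W), where 10.5% of all genes differed. It differed from HFCFD2W for 9 in HFCFD8W+T10D (1 higher, 8 lower) and for 18 in HFCFD12W+T10W (2 higher, 16 lower), against 11.2% and 30.7% of all genes. *Noct*, a rhythmic phosphatase, rose from 36.2 ± 20.7 to 79.3 ± 14 CPM in HFCFD2W (1.13, adjusted p = 0.0192) and fell from 52.3 ± 10.0 to 35.7 ± 3.48 CPM in HFCFD12W+T10W (-0.51, adjusted p = 0.00321). *Usp2*, a deubiquitinase driven by the clock, changed by 0.47 (adjusted p = 0.0221) and by -0.71 (adjusted p = 5.38e-05) in those experiments. *Cyp7a1*, the rate-limiting enzyme of bile acid synthesis and a target of DBP, fell in HFCFD2W (-1.18, adjusted p = 0.00172) and in HFCFD8W+T10D (-2.03, adjusted p = 0.000142). Its value in HFCFD12W+T10W did not pass (-0.64, adjusted p = 0.103). *Elovl3*, a fatty acid elongase with a strong daily rhythm, fell from 63.3 ± 52.0 to 1.46 ± 2.32 CPM in HFCFD8W+T10D and from 14.8 ± 9.48 to 0.229 ± 0.196 CPM in HFCFD12W+T10W (-5.56 and -5.91). The HFCFD12W+T10W knockout level lies near the floor of 3 counts, so the size of that fall is imprecise. *Gys2*, liver glycogen synthase, and *Por*, the reductase that feeds cytochromes P450, each changed by -1.0 in HFCFD12W+T10W. Several of these genes have other regulators in liver, so a change in them is not a reading of the clock alone.

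The liver clock is also set by body temperature, glucocorticoids and food. The lists of genes that respond to these were chosen with earlier results of these data known, so their counts are no independent support. Of 14 genes that respond to temperature or glucocorticoids, 11 rose and none fell in HFCFD2W knockouts, with a median of 1.29, against 8.60% of all genes higher. *Fkbp5*, a glucocorticoid target, rose from 27.2 ± 5.0 to 72.9 ± 13.4 CPM (1.42, SE 0.14, adjusted p = 3.42e-05), *Tat*, tyrosine aminotransferase, from 1002.9 ± 369.7 to 2870.7 ± 381.6 CPM (1.52, SE 0.20, adjusted p = 0.00032), and *Hspa1a*, an inducible heat shock protein, from 0.819 ± 1.22 to 7.45 ± 4.65 CPM (3.17, adjusted p = 0.00452). None of the 13 tested was called in HFCFD8W+T10D by edgeR (median 0.0), and in HFCFD12W+T10W 3 of 14 rose and 4 fell (median -0.29) against 27.4% and 23.8% of all genes, and there *Fkbp5* changed by -0.68 (adjusted p = 0.0407) and *Tat* by -0.93 (adjusted p = 0.00164), while *Hspa1a* rose by 1.62 (adjusted p = 0.00248) and *Sgk1*, a kinase induced by glucocorticoids, by 1.18 (adjusted p = 0.000528). The difference of the genotype effect from HFCFD2W was called, in the lower direction, for 8 of 14 genes in HFCFD8W+T10D and for 10 in HFCFD12W+T10W, with 1 in the higher direction, where 6.79% and 17.3% of all genes were lower. These genes changed in the same HFCFD2W livers in which *Nr1d1* and *Dbp* were lower, and their part in those falls was not tested.

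Of 14 genes that respond to fasting and feeding, 5 of 12 tested rose in HFCFD2W and 1 fell, with a median of 0.51, where 8.60% of all genes rose and 8.09% fell. *Pck1*, the gluconeogenic enzyme PEPCK, rose from 1403.9 ± 461.7 to 3568.6 ± 432.7 CPM (1.35, adjusted p = 0.00039), *Igfbp1*, repressed by insulin, from 22.6 ± 18.7 to 235.6 ± 81.0 CPM (3.39, adjusted p = 0.000488) and *Lpin1* from 181.1 ± 99.3 to 785.6 ± 205.4 CPM (2.12, adjusted p = 0.00213). *Srebf1*, induced by insulin, fell from 757.2 ± 135.3 to 333.3 ± 59.4 CPM (-1.18, adjusted p = 0.000106). In HFCFD8W+T10D none of 13 rose and 1 fell (*G6pc*, -1.11, adjusted p = 0.00369), against 10.3% and 6.85% of all genes. In HFCFD12W+T10W, where 27.4% and 23.8% of all genes rose and fell, 1 of 13 rose (*Fasn*, 0.40) and 8 fell, among them *G6pc* (-1.24), *Lpin1* (-0.87) and *Pck1* (-0.55). This list too was chosen with earlier results of these data known, and its counts are descriptions. The part of these genes in the clock genes' changes was not tested either.

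**Figure D4:**
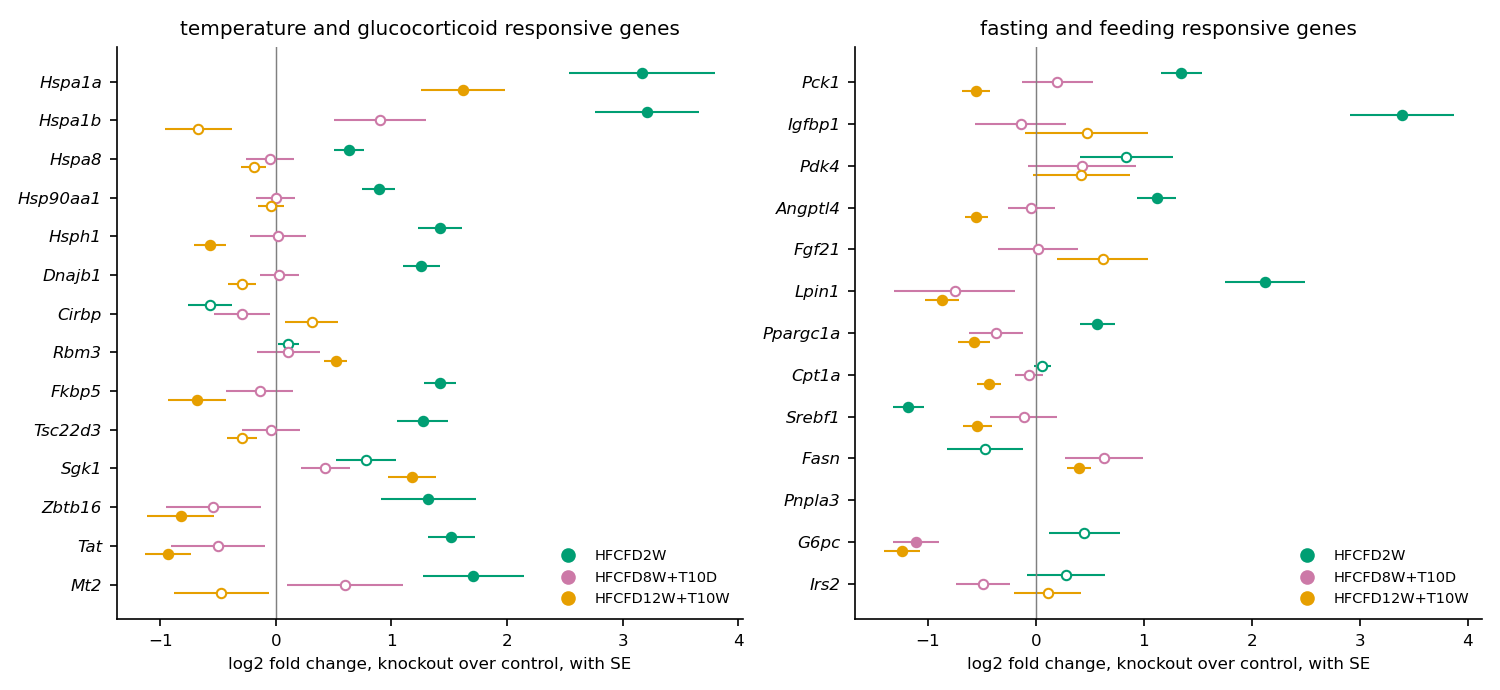
Log2 fold change of knockout over control with its standard error (horizontal axis, edgeR) for genes of the temperature and glucocorticoid list (left) and of the fasting and feeding list (right), 1 gene per line on the vertical axis, coloured by experiment, with filled points at an adjusted p under 0.05 and open points otherwise. Of the 14 temperature and glucocorticoid genes 11 are called higher in HFCFD2W, and in HFCFD8W+T10D none of the 13 tested is called.

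Markers of other liver cells moved with genotype in the tamoxifen experiments. *Cry1* was lower in both of them, and the period genes were called lower in HFCFD12W+T10W. In HFCFD12W+T10W the summed level of 6 hepatocyte markers was 83547.6 to 106523.5 CPM in controls and 42388.1 to 49330.3 CPM in knockouts, with 4 of 6 lower. Most of that sum was *Alb* (77545.4 ± 9125.1 against 35079.9 ± 2923.3 CPM), and *Apoa1* (-0.03) and *Ttr* (0.13) did not pass. All 6 stellate cell or fibroblast markers were higher there (290.9 to 362.4 against 1020.1 to 1267.2 CPM), as were all 5 cholangiocyte markers (3.22 to 5.17 against 34.8 to 61.3 CPM), 3 of 5 macrophage markers (222.2 to 619.2 against 536.1 to 759.0 CPM) and both lymphocyte markers that could be tested (8.79 to 20.3 against 31.8 to 46.8 CPM). Of 5 erythroid markers 3 were higher and 1 lower there, and of 5 endothelial markers 1 was higher and 2 lower. Of all genes 27.4% were higher and 23.8% lower there. In its controls *Cftr*, *Krt7*, *Epcam* and *Sox9* averaged 0.023, 0.808, 0.82 and 0.971 CPM, and *Cd3g* 0.402 CPM. These markers entered the test through the knockouts, where they are higher, so their calls are not read as results. In HFCFD8W+T10D 4 of 6 hepatocyte markers were lower and 2 of 6 stellate cell, 3 of 5 macrophage, 2 of 4 cholangiocyte and 4 of 5 erythroid markers were higher, and 1 of 5 endothelial markers was lower. Of all genes 10.3% were higher and 6.85% lower there. *Epcam*, at 0.488 ± 0.156 CPM in its controls, also entered the test through the knockouts. There 1 of the 2 lymphocyte markers tested was higher, with summed levels of 12.9 to 18.7 against 22.1 to 64.1 CPM. In HFCFD2W, where *Nr1d1* and *Dbp* were lower, no hepatocyte, stellate cell or endothelial marker passed, nor did the 1 cholangiocyte and 1 lymphocyte marker that could be tested, of 5 each. There 2 of 5 macrophage markers were higher and 1 of 5 erythroid markers was lower, and *Cd3e* and *Cd3g* were at or under 3 counts. Of all genes 8.60% were higher and 8.09% lower in that experiment. The part of these cells in the changes of the clock genes was not tested.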

How the data were processed

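Livers of 30 male mice (3 experiments, 2 genotypes, 5 mice per group, labelled biological replicates) were sequenced from poly(A) RNA with a stranded TruSeq kit. Per the submitters' processing notes, the authors used Trimmomatic 0.36, STAR 2.5.1, Picard 1.84, RSEM 1.2.22 and DESeq2 with mm10, in an order not given in the sources used here. They deposited RSEM expected counts per gene, TPM per library (FPKM not used) and a table of 15010 genes whose TMM-normalized CPM signal was used only in 1 alternative and with the authors' own scaling. Of the nonzero expected counts 11.3% were not whole, and they were rounded. The gene names were matched to GENCODE M21.

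Genotype was tested within each experiment and cohorts and interactions over all 30 mice and 6 groups, with edgeR 4.0.16 (R 4.3.3): low-count filter, TMM factors, quasi-likelihood F test and Benjamini-Hochberg adjustment over all genes tested, called at an adjusted p under 0.05. The fit was tested on simulated data. CPM printed per mouse use TMM factors over all 30 mice, so a ratio of printed means can differ slightly from a fitted fold change, and log2 CPM use a prior count of 2. Correlations of pairs used deviations from group means and 100000 permutations within groups. Alternatives were DESeq2 1.42.0, limma 3.58.1 on log2(CPM + 1), other scalings, no filter, stricter thresholds, each mouse left out, and added after seeing the data, library totals without TMM factors and the omission of both replicate-5 mice.

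Totals of 7996128 to 10257366 counts per library set the precision, and genes at 3 counts or under were read as at the floor. The text names all 10 members, and of the other lists members called in a genotype comparison (a few genes of those lists are not reported here), and for *Arntl* and *Dbp* the 5 most and 5 least alike genes. The members and the lists were chosen with earlier results of these data known.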

Additional observations from a re-analysis of the deposited data

Results flagged for a closer look

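A mouse far from the others of its group was found in 3 of the 60 groups of values examined (10 genes in 6 groups of 5), and chance marks about 1 in 20. *Arntl* of HFCFD2W knockout 3 was at 2.40 log2 CPM (5.05 CPM), with a gap to the next mouse of 0.75 of the group's range. *Per3* of HFCFD2W control 3 was at 4.32 log2 CPM (19.7 CPM), a gap of 0.76 of the range. *Npas2* of HFCFD12W+T10W control 5 was at -1.65 log2 CPM (0.101 CPM) in a group otherwise at 0, and lies under the floor of 3 counts.

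The interaction test of edgeR passed for 3 genes, of which *Arntl* is at 1 to 6 counts per library in HFCFD2W controls and was left out of the genotype test there for low counts. For *Cry1* the effect in HFCFD8W+T10D minus that in HFCFD2W was -1.29 (adjusted p = 0.0129), and the effect in HFCFD12W+T10W minus that in HFCFD2W was -1.76 (adjusted p = 0.000463). For *Arntl* the same contrasts gave -2.24 (adjusted p = 0.0347) and -2.12 (adjusted p = 0.0386), and both rest in part on HFCFD2W knockout 3, without which they were -1.54 (adjusted p = 0.149) and -1.43 (adjusted p = 0.146). For *Nr1d1* the effect in HFCFD12W+T10W exceeded that in HFCFD2W by 1.03 (adjusted p = 0.0334), or by 0.80 (adjusted p = 0.0925) without HFCFD2W control 2.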

How the results depend on the processing

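Counts of called members moved with the threshold. At an adjusted p under 0.01, 1 member was called in HFCFD2W, 1 in HFCFD12W+T10W, 3 between HFCFD12W+T10W and HFCFD2W controls, 0 in the interaction of HFCFD8W+T10D with HFCFD2W and 1 in that of HFCFD12W+T10W with HFCFD2W. With a fold above 2 they were 1, 0 and 1 for the 3 genotype comparisons and 3 between HFCFD12W+T10W and HFCFD2W controls. In HFCFD8W+T10D 2 members were called in the fit over all mice, with the replicate block (*Clock* -0.48, adjusted p = 0.0123, and with the block its interaction with HFCFD2W at -0.82, adjusted p = 0.012) and without both replicate-5 mice. In HFCFD12W+T10W 2 were called with upper-quartile scaling and 2 with library totals. With each mouse left out, the counts ranged from 2 to 3, 1 to 2 and 2 to 4 for genotype in the order of the experiments, from 3 to 6 between HFCFD12W+T10W and HFCFD2W controls, from 7 to 9 and 9 to 9 for the other control contrasts, and from 1 to 3, 0 to 0 and 1 to 3 for the interactions. The causes were not tested.

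Of the values that changed sign, that of *Per1* in HFCFD12W+T10W was called as reported and *Nr1d2* there was called under library totals (adjusted p = 0.0415). In HFCFD12W+T10W library totals gave 0.039 for *Per1*, 0.091 for *Nr1d1*, 0.25 for *Nr1d2*, 0.22 for *Clock*, 0.35 for *Arntl* and 0.22 for *Dbp*, and *Arntl* was at 0.051 with upper-quartile scaling, 0.018 with the replicate block and 0.0022 with limma. Library totals also gave 0.052 for *Per3* in HFCFD8W+T10D and 0.10 for *Per1* and 0.12 for *Per2* in the interaction of the tamoxifen experiments. The replicate block gave -0.0058 for *Per2* in HFCFD2W and -0.007 for *Nr1d2* in the interaction of HFCFD12W+T10W with HFCFD2W. With single mice left out, *Per3* ran from -0.27 to 0.15 in HFCFD2W and from -0.39 to 0.021 in HFCFD8W+T10D, *Arntl* from -0.31 to 0.24 and *Dbp* from -0.33 to 0.055 in HFCFD12W+T10W, *Per1* from -0.29 to 0.10, *Arntl* from -0.15 to 0.43 and *Per2* from -0.22 to 0.094 in the interaction of the tamoxifen experiments, and *Nr1d2* from -0.024 to 0.13 in that of HFCFD12W+T10W with HFCFD2W. The interactions of *Arntl* were not called with limma (-1.14, adjusted p = 0.0725, and -0.90, adjusted p = 0.0932). That of HFCFD12W+T10W with HFCFD2W was also not called with upper-quartile scaling or library totals.

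Replicate numbers were not taken as pairs in the main fits. Over 2000 genes same-numbered mice correlated at -0.231 to 0.184, with replicate 5 highest in both tamoxifen experiments (0.16 and 0.184). Mice of different numbers were not compared, so pairing was not excluded. The calls of *Nr1d1* and *Dbp* in HFCFD2W and of *Cry1* in both tamoxifen experiments held under every alternative scaling and tool run and with each mouse left out. The interaction of *Per3* between HFCFD8W+T10D and HFCFD2W was near 0 and took either sign, from -0.31 to 0.18 with each mouse left out and up to 0.20 with library totals. Over the values recomputed for single members with no change of sign, 49 lost a call and 25 gained one. The r of *Arntl* with *Nr1d1* ran from -0.53 to -0.33 with each mouse left out. Depth limits *Arntl* in HFCFD2W, and *Npas2* outside HFCFD8W+T10D and in controls 1 to 3 of that experiment.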
